A study of Mus musculus with 24 samples.

Results

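The ribosomal protein genes of mouse muscle cells were followed in 4 groups of cultures on Affymetrix MOE430A and MOE430B arrays. Members were taken by symbol alone: every probe set annotated to exactly 1 gene whose symbol starts with Rpl or Rps and a digit, or is Rpsa, Rplp0, Rplp1 or Rplp2, leaving out the Rps6k kinases and pseudogene symbols. This gave 106 of 45265 probe sets (100 on MOE430A, 6 on MOE430B), which stand for 50 of 18194 genes. Of these 50 genes, 22 encode large-subunit proteins, 21 small-subunit proteins, and 7 are paralogues or a partner: Rpl3l, Rpl7l1, Rpl22l1, Rpl39l, Rps4l, Rps27l and Rps19bp1, the last a protein that binds Rps19. Rps4l has no pseudogene mark in its symbol, but the gene annotation gives it as a transcribed pseudogene. Only probe sets brighter than 40% of all probe sets on the same array, in 3 or more of the 12 cultures, were tested, which left 94 probe sets and 46 genes. The genes below that limit were Rpl3l, Rpl39l, Rps4l and Rps16. Another 112 probe sets list a ribosomal protein symbol beside other genes and were left out of the membership, and 31 ribosomal protein symbols, among them Rpl3, Rpl5, Rpl10 and Rplp1, occur only there.

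A ribosome is made of a small subunit, which reads the mRNA, and a large subunit, which joins amino acids. Each subunit carries its own set of proteins, named Rps and Rpl, on a core of ribosomal RNA. The mRNAs of most of these proteins begin with a short run of C and T bases (U in RNA) at the cap, the 5' terminal oligopyrimidine tract, through which mTOR signalling sets their translation, so that an mRNA level and the amount of protein made need not move together. Dividing cells make ribosomes at a high rate, and Myc and the growth factor pathways raise ribosome production, while Rb can bind the RNA polymerase I factor Ubtf. Some family members have near copies: Rps27l of Rps27, and Rpl22l1 of Rpl22. Rps27l is known as a target of p53 in human and mouse cells, and Rpl22 protein holds down Rpl22l1 in mouse cells.

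Each group had 3 cultures with 1 array of each type. The MCK-cre Rb-flox myotubes (J, K and L), called Rb-flox myotubes here, carry floxed Rb and a Cre driven by the muscle creatine kinase promoter, which switches on when muscle cells differentiate, so Rb is lost late. Wild-type (WT) myotubes are cultures G, H and I, and both kinds of myotube were collected on day 6 of differentiation in 5% horse serum, from 3 independent lines per genotype. Rb-null myoblasts (D, E and F) lack Rb while they divide, and their label calls them defective in differentiation. WT myoblasts are cultures A, B and C, and both kinds of myoblast were proliferating primary cells derived from satellite cells, in 20% serum with bFGF. The labels give a purity near 100%, with fibroblasts as the remaining cells. Values are intensities on a linear scale, 1 per probe set and array. Their trimmed mean is 1500 on every array, so they say nothing of total RNA per cell, and a lower signal from fewer cells of a type cannot be told apart from less of that mRNA per cell.

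The labels were checked against marker genes. Rb1 intensity was 590 to 802 in Rb-flox myotubes against 3265 to 3664 in WT myotubes, and 260 to 712 in Rb-null myoblasts against 1439.7 to 2879 in WT myoblasts, by a probe set whose place relative to the deleted exons was not established here. Of 12 myotube markers, 11 were called higher in WT myotubes than in WT myoblasts, and 3 (Ckm, Myh8 and Mef2c) were called lower in Rb-flox than in WT myotubes. All 4 measured cell cycle markers were lower in WT myotubes than in WT myoblasts and higher in Rb-flox than in WT myotubes. The summed intensity of 8 measured fibroblast markers was 48766 to 64764 in Rb-flox myotubes against 15407 to 32053 in WT myotubes, and 51321 to 55033 in Rb-null myoblasts against 58047 to 70841 in WT myoblasts. The remaining fibroblast markers on the list, Postn and Lum, did not pass the filter. The part of these cells in the results below was not tested.

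Promoters are shown for the 6 genes whose representative probe set was called between WT myotubes and WT myoblasts and that the RefSeq promoter table (build GRCm38.p6) lists, since the cap-proximal run of pyrimidines is what these genes are best known to share. Each sequence runs 5' to 3' from 40 bases before to 20 bases after an annotated start. Capitals mark the longest unbroken run of C and T at any place in the window, so a marked run need not be the tract at the cap. Where runs tie in length, as in the first windows of Rps27l and Rpl22, the first of them is marked. Rps27l has a window at chr9:66946046-66946105 (plus strand) and one at chr9:66946373-66946432 (plus strand). The others are Rps27 at chr3:90213629-90213688 (minus strand), Rpl22 at chr4:152324396-152324455 (plus strand) and chr4:152325686-152325745 (plus strand), Rpl22l1 at chr3:28805468-28805527 (plus strand), Rps9 at chr7:3704001-3704060 (plus strand) and Rps25 at chr9:44407674-44407733 (plus strand).
Rps27l, first window: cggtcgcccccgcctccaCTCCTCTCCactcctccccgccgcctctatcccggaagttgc
Rps27l, second window: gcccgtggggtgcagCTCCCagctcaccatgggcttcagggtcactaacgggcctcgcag
Rps27: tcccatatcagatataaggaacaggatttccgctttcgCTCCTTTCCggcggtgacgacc
Rpl22, first window: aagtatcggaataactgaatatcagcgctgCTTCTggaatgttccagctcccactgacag
Rpl22, second window: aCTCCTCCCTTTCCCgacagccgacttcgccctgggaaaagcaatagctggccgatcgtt
Rpl22l1: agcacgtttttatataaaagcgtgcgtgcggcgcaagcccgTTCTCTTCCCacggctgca
Rps9: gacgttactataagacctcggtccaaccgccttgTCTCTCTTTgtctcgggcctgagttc
Rps25: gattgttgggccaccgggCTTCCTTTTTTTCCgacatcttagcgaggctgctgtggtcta

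The table held 52 start windows for 44 of the 50 genes. A run of at least 8 pyrimidines lay in 26 of these 52 windows (50%), against 24.2% of all 32851 windows in the table, and a run of at least 10 in 16 (30.8%), against 11.7%. These counts take a run at any place in the 60 bases, so they are not counts of tracts at the cap. Among the windows printed above, the runs were 14 bases in Rps25 and in the second window of Rpl22, 10 in Rpl22l1, 9 in Rps27, Rps9 and the first window of Rps27l, and 5 in the other windows of Rps27l and Rpl22. In Rps27 and Rps9 the run spans the annotated start. In Rpl22l1 it begins at base 2 of the transcript, and in the other printed windows it ends before the start. Over the full window of 250 bases before to 50 after the start, searched on both strands, the ETS-type motif ACTTCCGG occurred in 10 of 52 windows (19.2%) against 3.89% of all, the E-box CACGTG in 5 (9.62%) against 7.15%, and an E2F-type motif (TTTCGCGC or TTTGGCGC) in 1 (1.92%) against 0.813%. A match of letters is not a binding site. Run lengths, window and motifs were chosen with such counts in view, so they serve as a description only.

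Culture B, a WT myoblast, stood apart in its ribosomal protein signals. The median deviation of the 46 genes from their own mean over the 12 cultures was 0.66 log2 in B, against -0.32 to 0.23 in the other 11 cultures, and B was the highest of the 12 cultures for 28 of 46 genes. Set against the mean of WT myoblasts A and C, B was higher for 43 of 46 genes, with a median of 0.60 log2 (1.52-fold), while all 14331 genes had a median of 0.09. Rpl27a had the widest gap, with an intensity of 7934 in B against 886 in A and 652 in C. Rplp0, a protein of the stalk that recruits elongation factors, read 67413 in B against 34969 in A and 38106 in C. B was also scanned with all 6 myotube cultures, on another day than the other 5 myoblast cultures, and its 18S rRNA control signal on MOE430A was 7903, within the 5394 to 11786 of the myotubes and above the 199 to 511 of the other myoblasts. Whether the scan day, the 18S signal or the cells account for B was not tested, and the main counts and medians that rest on WT myoblasts are given with and without it.

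**Figure D1:**
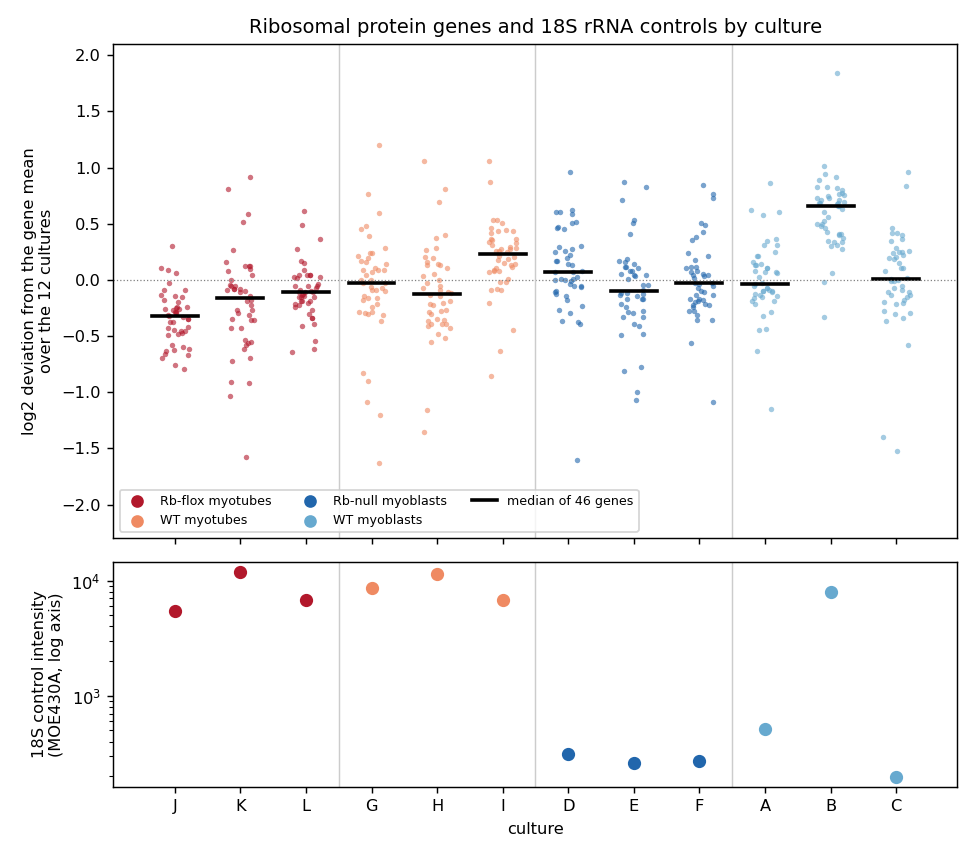
Upper panel: deviation of each of the 46 ribosomal protein genes from its own mean over 12 cultures (log2 scale, y axis), by culture (x axis, Rb-flox myotubes, WT myotubes, Rb-null myoblasts, WT myoblasts), with the median marked; lower panel: the 18S rRNA control signal of the same MOE430A arrays on a log axis. Culture B has a median of 0.66, and the other 11 cultures lie between -0.32 and 0.23.

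Differentiation was compared first, WT myotubes against WT myoblasts, since the change in serum and the exit from the cell cycle fall there. Of the 46 genes, 1 was higher (Rps27) and 6 were lower (Rps9, Rps27l, Rpl22l1, Rpl22, Rps25 and Rpl8) in WT myotubes at a limma adjusted p under 0.05, or 15.2%. Over all 14331 genes 30% were called, 14.5% higher and 15.5% lower. The members' share was thus the smaller one in this fit, but the larger one with quantile normalization (39.1% against 29% of all genes) and with scan day as a block (21.7% against 14.8%). The median log2 change was -0.19 for the 46 genes (30 negative) and 0.14 for all genes. The 22 large-subunit genes had a median of -0.09 with 2 lower, and the 20 small-subunit genes -0.23 with 1 higher and 2 lower. By probe set, 1 of 94 was higher and 20 were lower (22.3%, background 25.5%, 11.4% higher and 14.1% lower), so that 21.3% of the members' probe sets were lower. The 3 cultures of each group did not overlap for 12 genes (26.1%), 1 above and 11 below (23.9%), against 44.2% of all genes, 21% of all genes lying below. The ratio of the actin 3' to 5' control signals on MOE430A, one sign of RNA quality, was 0.422 to 0.593 in WT myotubes against 1.06 to 1.18 in WT myoblasts. The same ratio for Gapdh lay much closer, at 0.793 to 0.867 in WT myotubes against 0.782 to 0.797 in WT myoblasts. The part of RNA quality in these results was not tested.

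Culture B weighed on this comparison. Without it, 5 genes were higher (Rps27, Rpl27a, Rps24, Rpl41 and Rpl38) and the same 6 lower, or 23.9%, with a median of -0.05. All genes had 34.5% called in that fit, 18.8% higher and 15.7% lower, with a median of 0.18. Without culture A, C or G in turn, 4 genes were called each time. On the arrays of 1 scan day, where B is the lone WT myoblast, the median of 45 MOE430A genes was -0.60 with 42 negative, against -0.03 for all genes there. With scan day as a block, a fit in which B alone ties the days together, 0 genes were higher and 10 lower, among them Rpsa, Rpl11 and Rps26, with a median of -0.59. All genes had 14.8% called with the block, 7.26% higher and 7.49% lower, with a median of -0.02. The lower calls of Rps9, Rps27l and Rpl22 stood without B and with the block.

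Rps27l, the p53-responsive near copy of Rps27, had the smallest adjusted p among the 46 genes. Its representative probe set read 8121, 6775 and 8366 in WT myotubes, against 16791, 20339 and 19677 in WT myoblasts. All 3 WT myotube cultures lay below all 3 WT myoblast cultures. The gene was 2.42-fold lower (log2 change -1.28, SE 0.202, limma adjusted p = 4.49e-04). The 2 other probe sets of Rps27l, both of the _x_at kind, which can pick up related transcripts, were also lower, with log2 changes of -0.76 and -1.06 (limma adjusted p = 0.0101 and 0.00301). Rps27, which encodes the zinc finger protein of the small subunit that Rps27l resembles, moved the other way in this comparison. Its intensity was 2281, 2171 and 2476 in WT myotubes, against 788, 1713 and 821 in WT myoblasts. WT myotubes were above WT myoblasts without overlap, with culture B the nearest of the myoblasts, and the gene was 2.08-fold higher (log2 change 1.06, SE 0.295, limma adjusted p = 0.0166). Without B the difference was wider (log2 change 1.38, limma adjusted p = 0.00252), and with the block it lost its call (log2 change 0.40, limma adjusted p = 0.45). The call was also lost without WT myoblast A or C (log2 changes 0.88 and 0.91).

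Rpl22 and its near copy were both called lower by their representative probe sets. Rpl22, an RNA-binding protein of the large subunit, read 6729.6, 6241 and 8304 in WT myotubes, against 15106, 13426 and 10922 in WT myoblasts. The groups did not overlap, and Rpl22 was 1.84-fold lower in WT myotubes (log2 change -0.88, SE 0.198, limma adjusted p = 0.00516). With the mean of its 3 probe sets the call was lost (log2 change -0.54, limma adjusted p = 0.0886), and the other 2 gave log2 changes of -0.20 with overlapping groups (limma adjusted p = 0.598) and -1.02 (0.066). Rpl22l1, which can take its place in the ribosome, had intensities of 3055, 5905 and 5232 in WT myotubes, against 10781, 11383 and 9184 in WT myoblasts. It was 2.25-fold lower with no overlap (log2 change -1.17, SE 0.304, limma adjusted p = 0.0114), and the call was lost with scan day as a block (log2 change -1.30, limma adjusted p = 0.0679) and without WT myotube G (log2 change -0.89).

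**Figure D2:**
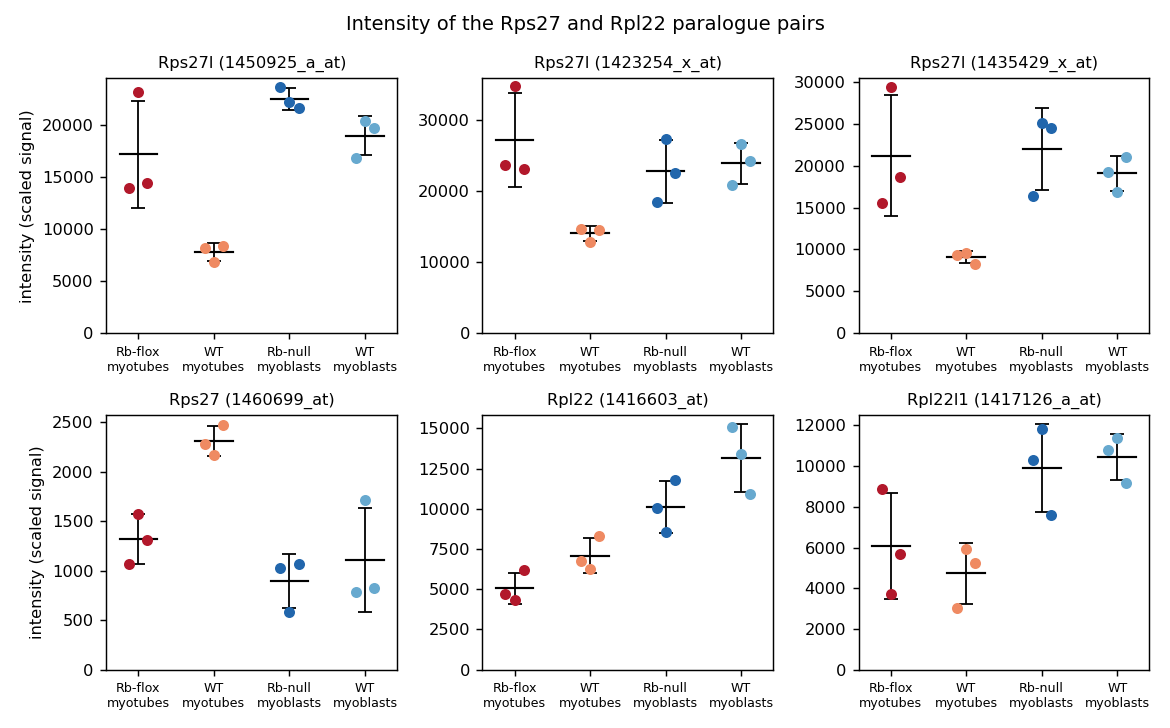
Intensity (y axis, linear) of the 3 Rps27l probe sets and of Rps27, Rpl22 and Rpl22l1 in each culture of the 4 groups (x axis), with the mean and SD of 3 cultures per group. Every Rps27l probe set has its lowest 3 values in WT myotubes, while Rps27 has its highest 3 there.

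Of the other members that fell, Rpl8, a large-subunit protein close to the peptidyl transferase centre, read 19537, 19599.8 and 21799.7 in WT myotubes, against 31944, 31954 and 30748 in WT myoblasts. WT myotubes were all lower, by 1.55-fold (log2 change -0.63, SE 0.201, limma adjusted p = 0.0304). With the block Rpl8 lost its call (log2 change -0.65, limma adjusted p = 0.139), as it did without A, C, G or H in turn (log2 changes -0.65 to -0.61). Rps9, a protein at the mRNA entry side of the small subunit, had its largest fall on a dim probe set, 122, 44.6 and 158 in WT myotubes, against 559, 697 and 740 in WT myoblasts. Its WT myotube values lie around the offset of 130 that was added before logging, which compresses the change, and the gene was 3.39-fold lower on that scale (log2 change -1.76, SE 0.383, limma adjusted p = 0.00402). A second, bright Rps9 probe set of the _s_at kind, which can detect several transcripts, read 19774, 17569 and 27485 in WT myotubes, against 32945, 36542 and 31016 in WT myoblasts, and was 1.57-fold lower (log2 change -0.65, SE 0.193, limma adjusted p = 0.0169). Rps25, a small-subunit protein used by some viral internal ribosome entry sites, read 669, 1186 and 1652 in WT myotubes, against 1972, 1648 and 2911 in WT myoblasts. Here the groups overlapped, with WT myotube I just above WT myoblast B, and the call (log2 change -0.87, SE 0.297, limma adjusted p = 0.0424) was lost with the block (log2 change -0.53, limma adjusted p = 0.433), with quantile normalization, and without A, C, D, E, G, H or J in turn.

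Several members with well-known roles did not pass the test. Rps6, the classic substrate of S6 kinase, had a log2 change of -0.66 (-0.50 without B). Outside the membership, probe sets that list Rps6 beside other genes were called lower, at -0.72 and -0.62 (limma adjusted p = 0.00983 and 0.0311). Rpsa, also known as the laminin receptor, had -0.61 (-0.31 without B), and Rpl11, which with Rpl5 and 5S rRNA binds Mdm2, -0.55 (limma adjusted p = 0.0575; -0.38 without B). The stalk proteins Rplp0 and Rplp2 had -0.41 and -0.53 (-0.12 and -0.35 without B). Rps19 and Rps14, whose loss in humans impairs red cell production, had -0.42 and -0.40 (-0.28 and -0.18 without B). Rpl38, which in mouse shapes the translation of Hox mRNAs, had 0.36 and was called higher without B (log2 change 0.55, limma adjusted p = 0.0407). In the block fit, lower calls were made for 4 of these, with a limma adjusted p of 0.0178 for Rpsa, 0.0269 for Rpl11, 0.0161 for Rplp0 and 0.0364 for Rps14. The widest uncalled difference was that of Rpl27a, 1.30, whose WT myoblasts spread over 652 in C, 886 in A and 7934 in B. Without B Rpl27a was called higher (log2 change 2.36, limma adjusted p = 1.08e-04), and with the block its direction turned (log2 change -0.82, limma adjusted p = 0.109).

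Late loss of Rb was compared in Rb-flox against WT myotubes, all 6 scanned on 1 day per chip type. Rps27l alone of the 46 genes was called, and it was higher (2.17%, against 11.5% of all genes, 7.03% higher and 4.49% lower). The 46 genes had a median log2 change of -0.28, with 38 negative, against 0.01 for all genes. For 16 genes (34.8%) all Rb-flox myotubes lay below all WT myotubes, and for 1, Rps27l, above, 37% in all. Over all genes 27.9% did not overlap, and 13.1% of all genes lay below. The actin 3' to 5' ratio was 0.809 to 0.965 in Rb-flox myotubes against 0.422 to 0.593 in WT myotubes. The Gapdh ratio overlapped, at 0.765 to 0.871 in Rb-flox myotubes against 0.793 to 0.867 in WT myotubes. The part of RNA quality was not tested. The medians were -0.35 for the large-subunit and -0.25 for the small-subunit genes. This median depended on the scaling: with quantile normalization, which forces the bright end of all arrays into 1 distribution, it was -0.03, with 25 genes negative. By probe set, 3 of 94 were higher, all of Rps27l, and 3 lower, 2 of Rpl37a and 1 of Rps3 (6.38%, background 9.37%, 5.57% higher and 3.8% lower).

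**Figure D3:**
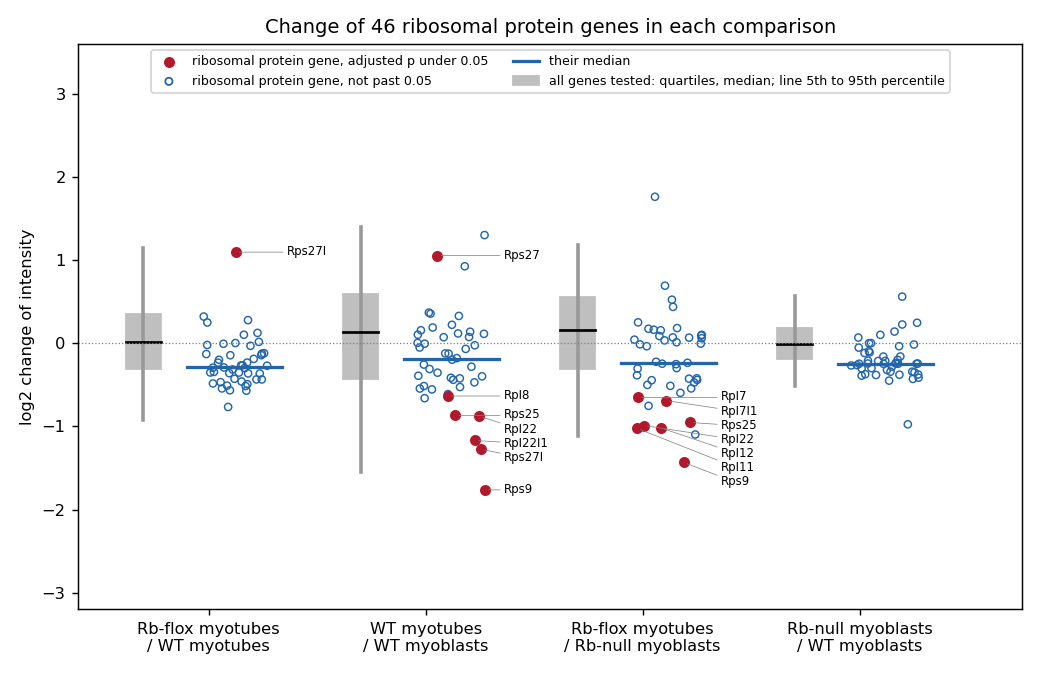
Log2 change (y axis) of each of the 46 ribosomal protein genes (points, called genes filled) in 4 comparisons (x axis), beside the quartiles and the 5th to 95th percentiles of all 14331 genes. The members' medians are -0.19 for WT myotubes over WT myoblasts, -0.28 for Rb-flox over WT myotubes, -0.24 for Rb-null over WT myoblasts and -0.24 for Rb-flox myotubes over Rb-null myoblasts.

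Rps27l read 13948, 23084 and 14357 in Rb-flox myotubes, against 8121, 6775 and 8366 in WT myotubes. Every Rb-flox culture was above every WT myotube, culture K the most, and the gene was 2.14-fold higher (log2 change 1.10, SE 0.202, limma adjusted p = 0.00364). The _x_at probe sets gave log2 changes of 0.92 and 1.17 (limma adjusted p = 0.00712 and 0.00397). Of the p53 targets on a list of stress genes, Mdm2 had a log2 change of 0.74 and Cdkn1a -0.56, neither past the threshold. Ccng1, another p53 target, had 1.15 (limma adjusted p = 0.0713), and of the 6 measured genes of that list 5 had a positive log2 change and 0 were called. In WT myotubes over WT myoblasts, where Rps27l was lower, 5 of the 6 were positive too, all but Ccng1 (-0.74), with a median of 0.27. Cdkn1a was called higher in that comparison (log2 change 1.86, limma adjusted p = 4.28e-05). Of 8 fibroblast markers 3 (Col3a1, Col5a2 and Fn1) were called higher in Rb-flox than in WT myotubes, and 2, Dcn and Pdgfra, had negative log2 changes, the lowest being -0.29. All 4 cell cycle markers were higher there, and the part of these cells or of cycling in the Rps27l difference was not tested. Rps27 was read at 1070.2, 1574 and 1309 in Rb-flox myotubes, against 2281, 2171 and 2476 in WT myotubes. Rb-flox cultures were all lower, but the difference missed the threshold (log2 change -0.77, SE 0.295, limma adjusted p = 0.121). The block brought it past (log2 change -0.77, limma adjusted p = 0.0375).

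Rpl37a, a large-subunit protein with a zinc finger, had a log2 change of -0.56 by its representative probe set, which missed the threshold over genes (limma adjusted p = 0.0779) and passed it over probe sets (0.0491). A second Rpl37a probe set was 1.65-fold lower (log2 change -0.72, SE 0.213, limma adjusted p = 0.0333). Rpl38 read 39614, 47020.0 and 43746 in Rb-flox myotubes, against 65011, 60705 and 67733 in WT myotubes, and all 3 Rb-flox values were the lower ones (log2 change -0.57, SE 0.213, limma adjusted p = 0.11; without B in the shared fit, adjusted p = 0.0482). Rps3, a small-subunit protein that also acts in DNA repair, showed how far probe sets can part. An MOE430B probe set of Rps3 read 3439.8, 3358 and 1692 in Rb-flox myotubes, against 8200.1, 5459 and 10048 in WT myotubes. This was a 2.71-fold difference (log2 change -1.44, SE 0.3, limma adjusted p = 0.0154). Another MOE430B probe set of the gene went the other way, uncalled and with overlapping groups (log2 change 0.45). The representative Rps3 probe set had a log2 change of -0.14 in the same comparison. Members with a log2 change close to 0 included Rpl8 (0.00), Rpsa (-0.01) and Rps25 (0.02), all with overlapping cultures. A probe set outside the membership, which lists Rps25 beside other genes, was called lower there (log2 change -0.65, limma adjusted p = 0.0263).

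Early loss of Rb was compared in Rb-null against WT myoblasts. No ribosomal protein gene was called by limma, nor was any gene of the array (0%), and by probe set 0 of 94 members were called against 0.00626% of all. At an unadjusted p under 0.05 there was 1 member, Rpl10a, against 750 of all genes (5.23%), and with array weights 0 members were called by gene and 1 by probe set. The median was -0.24 with 38 of 46 negative, against -0.01 for all genes, but it lay at -0.02 with 28 negative once culture B was left out, and at -0.03 with quantile normalization. Rps27l intensity was 23581, 22172 and 21552 in Rb-null myoblasts, against 16791, 20339 and 19677 in WT myoblasts. The Rb-null values were higher without overlap, by 0.25 log2 (limma adjusted p = 0.999). The groups overlapped for the _x_at probe sets, with log2 changes of -0.08 and 0.18. Rps6 was the only other gene with Rb-null cultures above WT without overlap (log2 change 0.56), and Rpl10a, Rpl7 and Rpl37a lay below without overlap. These 5 genes are 10.9% of the 46, and the 3 below are 6.52%, against 12.1% and 5.58% of all genes.

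The difference between the late and the early Rb comparison was tested as an interaction. None of the 46 genes was called, against 2.26% of all genes (1.51% higher and 0.747% lower), nor any of their 94 probe sets, against 2.14% (1.41% higher and 0.733% lower). By gene, 1 member had an unadjusted p under 0.05, against 2112 of all genes (14.7%). That member was Rps27l, higher in the myotube comparison (log2 change 0.85, SE 0.286, limma adjusted p = 0.158). The median was -0.01 for members (24 negative) and 0.03 for all genes. Without culture B it was -0.22 for members (38 negative) and -0.02 for all genes, again with 0 members called. So the Rps27l call in myotubes was not shown to differ from the result in myoblasts.

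Rb-flox myotubes were also set against Rb-null myoblasts, the differentiated and the dividing Rb-deficient cultures. These groups were scanned on different days on both chip types, so scan day and group cannot be told apart within the pair, and the fit with scan day as a block rests on culture B alone. Of 46 genes 0 were higher and 7 lower (15.2%, against 19% of all genes, 9.6% higher and 9.42% lower): Rps9, Rpl11, Rpl12, Rpl22, Rps25, Rpl7l1 and Rpl7. The median was -0.24 with 28 negative, against 0.16 for all genes. The cultures did not overlap for 22 genes (47.8%), 3 above and 19 below (41.3%), against 41.1% of all genes, 16.8% of all genes lying below. By probe set 1 was higher, that of Rpl27a, and 16 were lower (18.1%, background 16.8%, 7.61% higher and 9.23% lower). The count fell to 2 without culture D, E or F in turn, to 3 without K, and to 1, Rpl11, with the block. With quantile normalization 28.3% of the members were called, against 18% of all genes. Of 4 measured macrophage markers, Csf1r (0.92), Cd68 (1.21) and Adgre1 (1.31) were called higher in Rb-flox myotubes. Lyz2 went the other way (-0.19) and was not called, and Ptprc did not pass the filter. The summed intensity of the 4 was 3558 to 4391 in Rb-flox myotubes against 1572 to 2385 in Rb-null myoblasts. In WT myotubes over WT myoblasts all 4 also had positive log2 changes, with a median of 0.53 and 1 called. Of the 8 fibroblast markers 1, Pdgfra (1.55), was called higher, and 2 had negative log2 changes, the lowest being -0.82. Their summed intensity overlapped, at 48766 to 64764 in Rb-flox myotubes against 51321 to 55033 in Rb-null myoblasts. The part of such cells was not tested.

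Rpl11 read 10956, 11814 and 11165 in Rb-flox myotubes, against 26484, 19706 and 23686 in Rb-null myoblasts. The groups lay far apart, with a 2.03-fold lower mean in Rb-flox myotubes (log2 change -1.02, SE 0.205, limma adjusted p = 0.0053). Rpl12, a protein at the base of the stalk, read 395, 276 and 642 in Rb-flox myotubes, against 1018, 972 and 950 in Rb-null myoblasts. It was 2.02-fold lower without overlap (log2 change -1.02, SE 0.275, limma adjusted p = 0.0225). Rpl22 read 4692, 4320.3 and 6168 in Rb-flox myotubes, against 10024, 8582 and 11799 in Rb-null myoblasts, and was 1.98-fold lower (log2 change -0.99, SE 0.198, limma adjusted p = 0.00534). Rpl7 and its relative Rpl7l1, which in yeast has a counterpart in ribosome assembly, were both lower without overlap. Rpl7 had a log2 change of -0.65 (SE 0.191, limma adjusted p = 0.0316). Its call was lost with the mean of its probe sets and with its brightest one. Rpl7l1 had a log2 change of -0.69 (SE 0.213, limma adjusted p = 0.0392). Its call was lost with quantile normalization, with cyclic loess and without the trend in the fit. Rps9 was lower as well (log2 change -1.43, SE 0.383, limma adjusted p = 0.0215), as was Rps25 (log2 change -0.95, SE 0.297, limma adjusted p = 0.0407). The Rps9 probe set is the dim one, at 289, 19.5 and 232 in Rb-flox myotubes. It passed the filter through the myoblasts, and its call was lost with an offset of 1. Without D, E, F or K in turn, and with the block, Rpl12, Rpl7, Rpl7l1, Rps9 and Rps25 each lost their call. Rps27l had intensities of 13948, 23084 and 14357 in Rb-flox myotubes, against 23581, 22172 and 21552 in Rb-null myoblasts. Culture K lay within the Rb-null range, and the gene was not called (log2 change -0.43, limma adjusted p = 0.151). Rps6 had a log2 change of -1.10 that missed the threshold (limma adjusted p = 0.0748).

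Probe sets of 1 gene often disagreed, which bears on every single-gene value above. Of the 50 genes, 26 had 1 probe set and 24 had 2 to 6, and 40 of the 106 probe sets were of the _x_at kind. Among 20 genes with at least 2 probe sets past the filter, log2 changes of both signs occurred in 10 genes for WT myotubes over WT myoblasts, 9 for Rb-flox over WT myotubes, 4 for Rb-null over WT myoblasts and 15 for Rb-flox myotubes over Rb-null myoblasts. The median spread between the highest and lowest log2 change of a gene was 0.67 in the first of these. No gene had 1 probe set called higher and another called lower in the same comparison. Rpl13a, a protein known in human cells for silencing inflammatory mRNAs once it leaves the ribosome, was among the widest in WT myotubes against WT myoblasts. Its representative probe set had a log2 change of -0.05, but another read 2557, 1453 and 3623 in WT myotubes, against 9858, 8272 and 10252 in WT myoblasts. That probe set was 3.79-fold lower with no overlap (log2 change -1.92, SE 0.254, limma adjusted p = 6.18e-05). Rps24 had its representative probe set at 0.93 and others at -0.95 and -0.85, the negative ones past the threshold (limma adjusted p = 0.0436 and 0.00418).

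**Figure D4:**
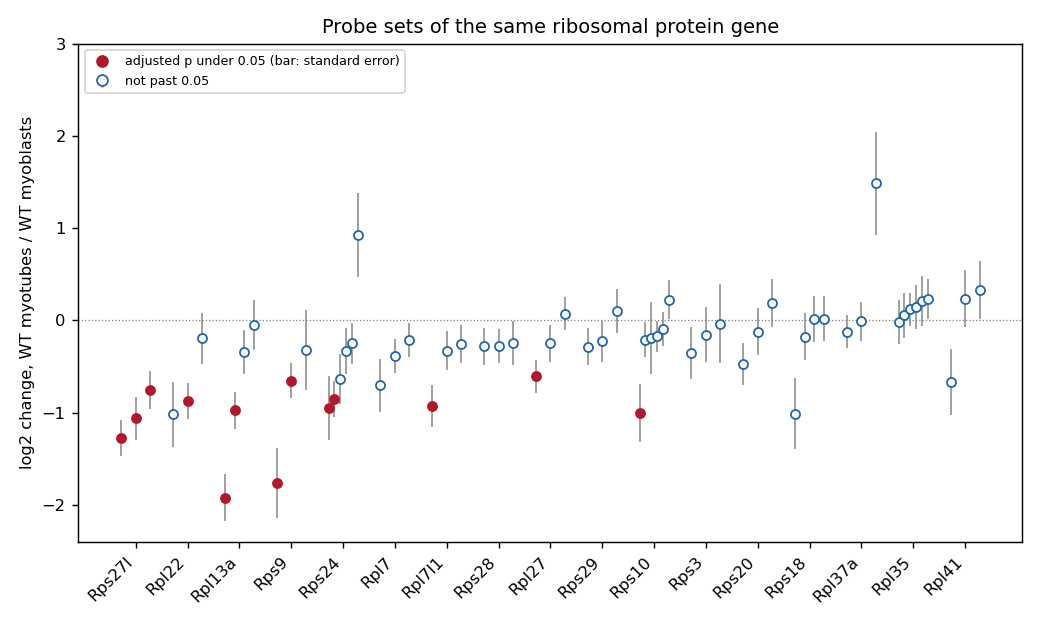
Log2 change of WT myotubes over WT myoblasts (y axis) for each probe set of the 17 ribosomal protein genes with 3 or more past the filter (x axis), filled where called, with bars for the SE of the limma fit. The 3 Rps27l probe sets lie together below 0, while those of Rps24 spread over 1.88 log2 and those of Rpl13a over 1.87.

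Brightness was split at a mean intensity of 10000, a limit chosen after the values were seen. The 62 probe sets above it had a median log2 change of -0.24 in WT myotubes over WT myoblasts, against -0.29 for the 32 below it. In Rb-flox over WT myotubes the medians were -0.30 and -0.25, and in Rb-null over WT myoblasts -0.30 and -0.10. Without culture B they were -0.03 and -0.35 in WT myotubes over WT myoblasts, and -0.10 and -0.04 in Rb-null over WT myoblasts.

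Other parts of the translation machinery were counted from lists of related genes, against 14.5% higher and 15.5% lower among all genes in the first comparison. In WT myotubes against WT myoblasts, of 25 measured initiation factors 0 were higher and 8 lower (32%), including Pabpc1, the poly(A) binding protein (-1.76 log2), and the helicase Eif4a1 (-1.31). Of 38 ribosome biogenesis genes 0 were higher and 15 lower (39.5%), with a median of -0.45, including Rrs1, which helps bring Rpl5, Rpl11 and 5S rRNA into the large subunit (-2.44), and the nucleolar chaperone Npm1 (-2.06). Of 76 mitochondrial ribosomal protein genes 2 were higher (2.63%) and 7 lower (9.21%), with a median of 0.01. Elongation factors had 0 higher and 1 lower of 8. Among 32 regulators of ribosome production 4 were higher (12.5%) and 8 lower (25%), with Myc (-1.48) and Ddit4, an inhibitor of mTOR signalling (-1.76) among those lower, and Rps6kb2, an S6 kinase (1.05) among those higher. Of 16 listed genes with terminal oligopyrimidine mRNAs 0 were higher and 7 lower (43.8%). Most of the 16 were already counted above as initiation factors, elongation factors or, for Npm1, biogenesis. The 7 include Npm1, Pabpc1, Eif3e and Eif4b, so this count is not separate from those above. Without culture B 18.8% of all genes were higher and 15.7% lower. The counts higher and lower were then 1 and 6 for initiation factors, 0 and 15 for biogenesis and 6 and 3 for mitochondrial ribosomal proteins. They were 2 and 1 for elongation factors, 4 and 7 for regulators, and 3 and 5 for the oligopyrimidine genes.

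In Rb-flox against WT myotubes, where 7.03% of all genes were higher and 4.49% lower, 1 of 25 initiation factors was higher, Pabpc1 (1.39 log2), and 2 were lower, Pabpc4 (-0.75) and Eif4g2 (-0.63). Rrs1 (0.76) and Utp4 (0.63), a factor of small-subunit assembly, were the 2 biogenesis genes called, both higher, of 38. The regulators Ddit4 (1.69), Eif4ebp1, which blocks the cap-binding factor (1.17), and Sesn2 (1.05) were higher and Akt1 (-0.89) lower, of 32. Mitochondrial ribosomal protein genes had 0 higher and 5 lower of 76 (6.58%). Of the 16 oligopyrimidine genes 2, Nap1l1 (0.79) and Pabpc1, the latter already counted above, were higher (12.5%) and 0 lower. Elongation factors had 1 higher, Eif5a2 (0.79), and 0 lower of 8. In Rb-flox myotubes against Rb-null myoblasts, 18 of 38 biogenesis genes were lower (47.4%) and 0 higher, with a median of -0.58, and 9 of 76 mitochondrial ribosomal protein genes were lower (11.8%) and 0 higher, against 9.42% lower and 9.6% higher among all genes. Counts higher and lower there were 0 and 6 for 25 initiation factors (24% lower) and 0 and 5 for the 16 oligopyrimidine genes (31.2% lower). They were 1 and 6 for 32 regulators (3.12% and 18.8%) and 0 and 1 for 8 elongation factors (12.5% lower). In Rb-null against WT myoblasts no gene of these lists was called. The comparisons share cultures, so their counts are not independent of each other.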

How the data were processed

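Total RNA of 12 cultures was hybridised as labelled cRNA to MOE430A and MOE430B arrays, 24 in all. The deposited tables give 1 intensity per probe set and array; the submitters' processing notes name MAS5, with no version, and the mean after removing the lowest and highest 2% is 1500 on every array. Genes were assigned by the supplied chip annotation and RefSeq (GRCm38.p6). Intensities were logged as log2(signal + offset), the offset being the 20th percentile of each chip type (130.2 on MOE430A, 206.0 on MOE430B). Each gene had 1 probe set: not _x_at or _s_at where another existed, then MOE430A, then the highest mean. limma 3.58.1 (R 4.3.3; lmFit, eBayes with a trend) fitted all 12 cultures and 14331 genes with Benjamini-Hochberg adjustment over all of them, and the 31931 probe sets with each chip type fitted and adjusted on its own, with calls at an adjusted p under 0.05. Tables were read and drawn with Python 3.11.15, numpy 2.4.6, pandas 2.3.3 and matplotlib 3.10.9. Where nothing says that cultures came from separate animals, p-values measure the spread between cultures only, and 3 per group limit the precision. On simulated arrays the fit was tested with known changes. The noise there was drawn separately for each gene and array, so shared effects of a culture or scan day lay outside that test.

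Members, gene lists, the panel and the tests were chosen with earlier results of these data known. Genes named were that panel, the paralogue pairs, up to 6 called members from each end of a comparison and up to 4 called genes per list; Rpl10a, Rpl27a, Rpl37a, Rpl41, Rps24 and Rps26 were named after their values were seen. The order of the probe set rules was settled after the files were seen. No letter is shared between groups, so no pairing was used.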

Additional observations from a re-analysis of the deposited data

How the results depend on the processing

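No paired analysis was possible because no culture letter occurs in more than 1 group. Each result was recomputed with other scalings (quantile, cyclic loess, median centring), offsets, probe set choices, filters, array weights and scan day as a block, and without each culture. Of 15 calls of single genes, none reversed. Those of Rps27l in both comparisons, of Rps9 in WT myotubes over WT myoblasts and of Rpl11 held in every setting run. The representative Rps9 probe set had passed the filter through the myoblasts, so its call is not independent of the filter. Putting chip type before suffix, added after seeing the data, left the numbers of genes called and their medians as they were. For WT myotubes over WT myoblasts (7 genes and 21 probe sets called), quantile normalization gave 18 genes and 42 probe sets, array weights 13 (6 higher, 7 lower) and 36, and probe sets ending only in _at 4 genes; the median was -0.59 with the block. The members' share of genes called was 39.1%, 28.3% and 18.2% in these fits, against 29%, 45% and 28.3% of all genes. Their share of probe sets called was 44.7% with quantile normalization and 38.3% with array weights, against 25.1% and 37.3% of all. For Rb-flox over WT myotubes (1 and 6), array weights gave 2 genes and 11 probe sets, and the block 3 and 14. By gene these were 4.35% and 6.52% of members, against 11.9% and 13% of all. By probe set they were 11.7% and 14.9% of members, against 10.1% and 9.95% of all. Lower were 8.51% and 11.7% of the members' probe sets, against 3.91% and 4.11% of all. Quantile normalization gave a median log2 change of the ribosomal protein genes of -0.0301. For Rb-flox myotubes over Rb-null myoblasts (7 and 17), quantile normalization gave 13 and 34 with a median of -0.41, median centring 11 and 34 with -0.45, the block 1 and 5 with -0.79, and array weights 31 probe sets. In the first 3 fits 28.3%, 23.9% and 2.17% of the member genes were called, against 18%, 18% and 1.36% of all genes. Of the members' probe sets 36.2%, 36.2% and 5.32% were called there, against 16.7%, 17.2% and 1.36% of all. With array weights it was 33% against 23.1%. For Rb-null over WT myoblasts array weights called 1 probe set (1.06%, against 1% of all). For the difference of the Rb effects cyclic loess called 1 (1.06%, against 2.11% of all). Array weights called 3 (3.19%, against 5.58% of all), with a median of -0.25 over genes. The causes were not tested. Leaving out 1 culture at a time gave these ranges: WT myotubes over WT myoblasts, 4 to 11 genes, 13 to 25 probe sets and medians of -0.31 to -0.05; Rb-flox over WT myotubes, 1 to 2, 4 to 14 and -0.35 to -0.18; Rb-null over WT myoblasts, 0, 0 and -0.36 to -0.02; Rb-flox myotubes over Rb-null myoblasts, 2 to 9, 12 to 26 and -0.31 to -0.14; the difference, 0, 0 to 1 and -0.22 to 0.10. For WT myotubes over WT myoblasts 13 probe sets were called without C or without H. For Rb-flox over WT myotubes 2 genes were called without B or without H, and 14 probe sets without B (14.9%, against 10.3% of all). For Rb-flox myotubes over Rb-null myoblasts 26 probe sets were called without B (27.7%, against 19.6% of all), and the median was -0.14 without D. The scaling itself shifts all genes: their median is 0.14 for WT myotubes over WT myoblasts and 0.16 for Rb-flox myotubes over Rb-null myoblasts as deposited, and 0.02 and -0.04 after median centring. Relative to all genes, the members' medians in these comparisons were -0.33 and -0.40 as deposited and -0.33 and -0.41 after centring. Signals near the offset understate a change, and very bright probe sets may be compressed, which was not tested.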

Other observations

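The 112 probe sets that list a ribosomal protein symbol together with other genes stand outside the membership, and 104 of them passed the filter. In WT myotubes over WT myoblasts 2 were higher and 12 lower by limma (13.5%, against 25.5% of all probe sets), with a median log2 change of -0.22. The 2 higher ones list Rpl5 (0.60) and Rpl37 with its retrotransposed copy (0.90). Those lower include 2 that list Rpl12 (-1.14 and -1.12), 2 that list Rps6 (-0.72 and -0.62) and 1 that lists Rpl36a and Rpl36al (-1.21). In Rb-flox over WT myotubes 0 were higher and 7 lower (6.73%, against 9.37% of all probe sets), with a median of -0.30 and 96 negative. Of these 7, 3 list Rpl36, a large-subunit protein (-0.85, -0.77 and -0.75), and 1 lists Rpl5, the partner of Rpl11 in binding 5S rRNA (-0.82). Another lists Rps25 (-0.65). In Rb-null over WT myoblasts none was called, with a median of -0.28, and in Rb-flox myotubes over Rb-null myoblasts 0 were higher and 15 lower (14.4%, against 16.8% of all probe sets), with a median of -0.19. Culture B was the one that stood out here too, with a median deviation of 0.64 log2. Without it, 7 were higher and 11 lower in WT myotubes over WT myoblasts (17.3%, against 28.4% of all probe sets), with a median of 0.01, and the median in Rb-null over WT myoblasts was -0.07. Since each such probe set can pick up several genes, no value is given to a gene.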
